A study of Homo sapiens with 12 samples.

Results

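MARCKS and MARCKSL1 are the 2 genes of the MARCKS family. They were looked up by gene symbol among 20044 genes with a probe that names 1 gene, and each was read by 1 probe (ILMN_1807042 for MARCKS and ILMN_1714433 for MARCKSL1). Both genes passed the filter on dim probes and were among the 10491 genes tested. They were chosen by their measured fold changes with the miR-140-3p mimics on these same arrays, MARCKS for being lower with one mimic and MARCKSL1 for being lower with the other, so their values under the mimics are given as a description, with standard errors and without a test.

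MARCKS, the myristoylated alanine-rich C kinase substrate, and its smaller relative MARCKSL1 are held at the inner face of the plasma membrane by a lipid tail and a stretch of basic residues. That stretch binds the membrane lipid PIP2 and actin, and phosphorylation by protein kinase C releases the protein from the membrane. Both proteins are known for their part in actin organisation, cell spreading and cell migration, including in breast cancer cells.

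The RNA came from 2 established breast cell lines. MCF10A is a non-tumorigenic mammary epithelial line and MDA-MB-231 a triple-negative breast cancer line with a mesenchymal shape. Cells of each line were transfected with 30 nM of a synthetic double-stranded mimic of hsa-miR-140-3p, with 30 nM of a mimic of its 5'isomiR-140-3p, or with 30 nM of a negative control mimic, and RNA was taken after 48 h. Each of the 6 groups of line by mimic held 2 arrays. The mimic groups were biological replicates per the study's methods, while the controls of a line were 1 array each of mimic-ctrl1 and mimic-ctrl2, which are different control mimics treated here, as in the methods, as 1 group. All 12 arrays came from transfected cells, and no untransfected sample was used here.

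The mimics differ in where they start, which sets the seed that pairs with target mRNAs, and for that reason both sequences are shown. The mature hsa-miR-140-3p lies at chr16:69933142-69933162 on the plus strand of GRCh38.p14, in the MIR140 hairpin as RefSeq lists it. The 5'isomiR mimic, whose sequence the study's methods give, starts 1 base later and ends 2 bases later, at chr16:69933143-69933164, and its letters were read from the same hairpin. Capitals mark the seed, bases 2 to 8.
hsa-miR-140-3p: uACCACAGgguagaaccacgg
5'isomiR-140-3p: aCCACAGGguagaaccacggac
The seeds share 6 of their 7 bases. A full seed match to hsa-miR-140-3p reads CUGUGGU and one to the 5'isomiR reads CCUGUGG. Of 2545 mature human miRNAs listed by RefSeq, 1 has the seed of hsa-miR-140-3p, that miRNA itself, and 0 have the seed of the 5'isomiR.

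For MARCKSL1 a mutagenesis primer of the study's reporter assays was at hand. A stretch of 30 of its 32 bases is given because it holds the letters put in at the site, in capitals, which all 6 forward mutagenesis primers of the study share.
MARCKSL1 primer: ctcctctccctCCACACGattctcccatca
Set against the seed match of the 5'isomiR in DNA letters, CCTGTGG, the capitals differ at 4 of 7 bases, T3A, G4C, T5A and G6C, with positions counted from 1 at the 5′ end of the match. No such primer for MARCKS was among those used here.

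Array medians lay between 107 and 109 units of the deposited linear intensity, which the authors had already normalised within each line, and 13005 to 14848 probes per array were above background, taken as the 0.99 quantile of 457 probes for olfactory receptors, genes hardly used outside the nose. That level lay between 129 and 142 units. Replicate mimic arrays correlated at 0.992 to 0.995 across probes, and mimic-ctrl1 with mimic-ctrl2 at 0.985 (MCF10A) and 0.981 (MDA-MB-231). KRT5 and KRT14, which mark basal epithelium, and the epithelial marker CDH1 were above background on the 6 MCF10A arrays and on 0 of 6 MDA-MB-231 arrays. EPCAM was above background on all 12. VIM, the mesenchymal filament protein, read 5500 to 6810 in MCF10A and 14000 to 16000 in MDA-MB-231. ZEB1 and SPARC were not above background on any array, and CDH2 went against the mesenchymal label, above background on 6 MCF10A arrays and on 0 of 6 MDA-MB-231 arrays. TP63 was not read by a single-gene probe, and ESR1 and PGR were below background throughout. The part of these marker levels in the results was not tested.

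MARCKS was well below its control level with hsa-miR-140-3p, and nearer to it with the 5'isomiR. In MCF10A the control arrays read 2902 and 3333 units. The arrays with hsa-miR-140-3p read 1659 and 1736, and those with the 5'isomiR 2918 and 2986. Both hsa-miR-140-3p arrays lay below every other MCF10A array, and the 5'isomiR arrays lay between the 2 controls. In MDA-MB-231 the controls read 5160 and 4979, and the arrays with hsa-miR-140-3p 2225 and 2222. The arrays with the 5'isomiR read 3920 and 3780, so that the 3 groups of this line did not overlap.

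**Figure D1:**
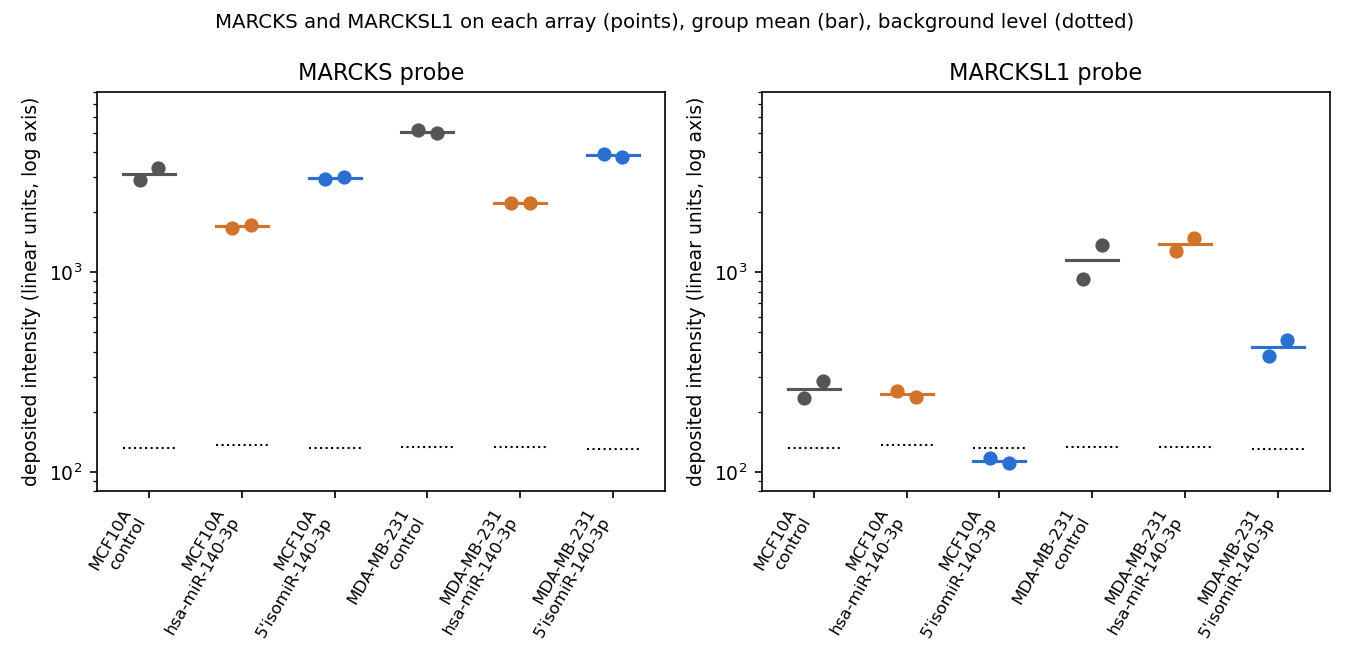
Deposited intensity (log axis) of the MARCKS probe (left) and the MARCKSL1 probe (right) in the 6 groups of cell line by mimic; points are arrays, bars are group means and dotted lines the mean background level of the group. In each line MARCKS is lowest with hsa-miR-140-3p, and MARCKSL1 with the 5'isomiR, where both MCF10A arrays (117 and 111) are under the background level.

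Expressed against the controls of the same line, MARCKS stood at 53.3% with hsa-miR-140-3p in MCF10A, a log2 fold change of -0.91 (SE 0.11, n = 2 against 2). In MDA-MB-231 it stood at 43%, a log2 fold change of -1.22 (SE 0.11). Counted from the most reduced gene, these values ranked 85th and 27th of 10491 genes. In these comparisons 0.715% (MCF10A) and 1.02% (MDA-MB-231) of all genes tested were called lower, a call being under 65% of control with an adjusted p under 0.05 from limma. With the 5'isomiR, MARCKS reached 92.9% of the MCF10A controls (log2 fold change -0.11, SE 0.11) and 76% of those of MDA-MB-231 (-0.40, SE 0.11). Between the 2 mimics, the MARCKS level under the 5'isomiR was above that under hsa-miR-140-3p by 1.74-fold (log2 difference 0.80, SE 0.11) in MCF10A and by 1.77-fold (0.82, SE 0.11) for MDA-MB-231. The controls were shared by the comparisons of both mimics in a line, so those fold changes are not independent of each other.

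MARCKSL1 showed the other order of the mimics. Its MCF10A controls read 236 and 285 units, and the arrays with hsa-miR-140-3p 256 and 237, which fell within the controls. With the 5'isomiR the arrays read 117 and 111, under the background levels of 133 and 132 units on those arrays. In MDA-MB-231 the controls read 921 and 1372, the arrays with hsa-miR-140-3p 1282 and 1487, and those with the 5'isomiR 382 and 461. The 5'isomiR arrays were thus the lowest of each line without overlap, whereas the groups with control mimics and with hsa-miR-140-3p overlapped in both lines.

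Because MARCKSL1 was not above background on either 5'isomiR array of MCF10A, its change there has only a bound. The bound sets the dim side to the lowest level that counts as above background on each array, and its size turned on the background correction, which widens the folds of dim probes. On the deposited scale MARCKSL1 was at least 1.96-fold lower than with the control mimics, and at least 1.86-fold lower than with hsa-miR-140-3p. After background correction the same bounds were 3.6-fold and 3.41-fold. In MDA-MB-231, where all arrays measured it, MARCKSL1 stood at 32% of control with the 5'isomiR (log2 fold change -1.64, SE 0.22, n = 2 against 2) and at 25.6% of what the hsa-miR-140-3p arrays showed (-1.97, SE 0.22). By rank its MDA-MB-231 values were 43rd from the lowest of 10491 genes against control and 6th against hsa-miR-140-3p, and no rank is read in MCF10A. Of all genes tested, 7.34% (MCF10A) and 5.09% (MDA-MB-231) were called lower by the 5'isomiR comparison. With hsa-miR-140-3p, MARCKSL1 reached 94.8% of the MCF10A controls (log2 fold change -0.08, SE 0.22) and 125% of those of MDA-MB-231 (0.32, SE 0.22).

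**Figure D2:**
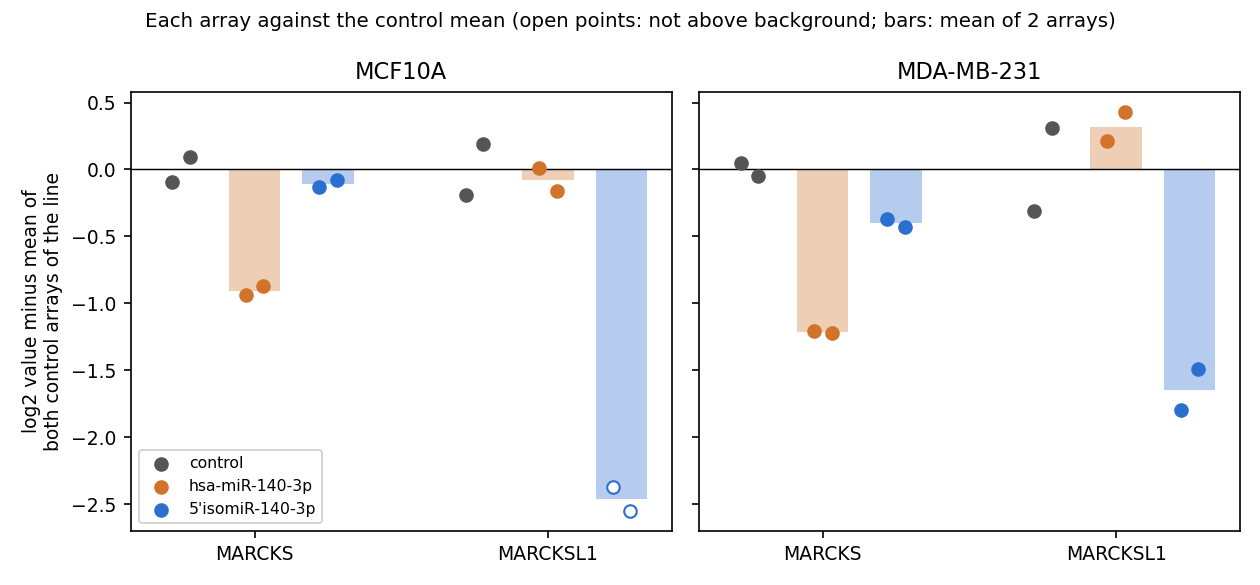
Normalised log2 value of each array minus the mean of both control arrays of its line, for MARCKS and MARCKSL1 in MCF10A (left) and MDA-MB-231 (right); bars are means of 2 arrays and open points were not above background. With hsa-miR-140-3p MARCKS lies at -0.94 and -0.87 in MCF10A and at -1.21 and -1.22 in MDA-MB-231, and with the 5'isomiR MARCKSL1 lies at -1.80 and -1.49 in MDA-MB-231.

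Error differed between the genes. The standard error of a MARCKSL1 fold change was 0.22 against 0.11 for MARCKS, and the 2 control mimics were the widest pair. From mimic-ctrl1 to mimic-ctrl2, MARCKSL1 differed by 0.39 on the log2 scale in MCF10A and by 0.61 in MDA-MB-231, where 88.1% of all genes differed by less. MARCKS differed between them by 0.17 and -0.09, against a median absolute difference over all genes of 0.20 for MCF10A and 0.24 for MDA-MB-231. Whether the control mimics themselves or the separate cultures moved MARCKSL1 cannot be told apart, since each control mimic had 1 array per line. The 5'isomiR arrays of MDA-MB-231 nevertheless lay under the lower of its controls, at 28.7% and 35.6% of the control mean, while that control lay at 80.8%.

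**Figure D3:**
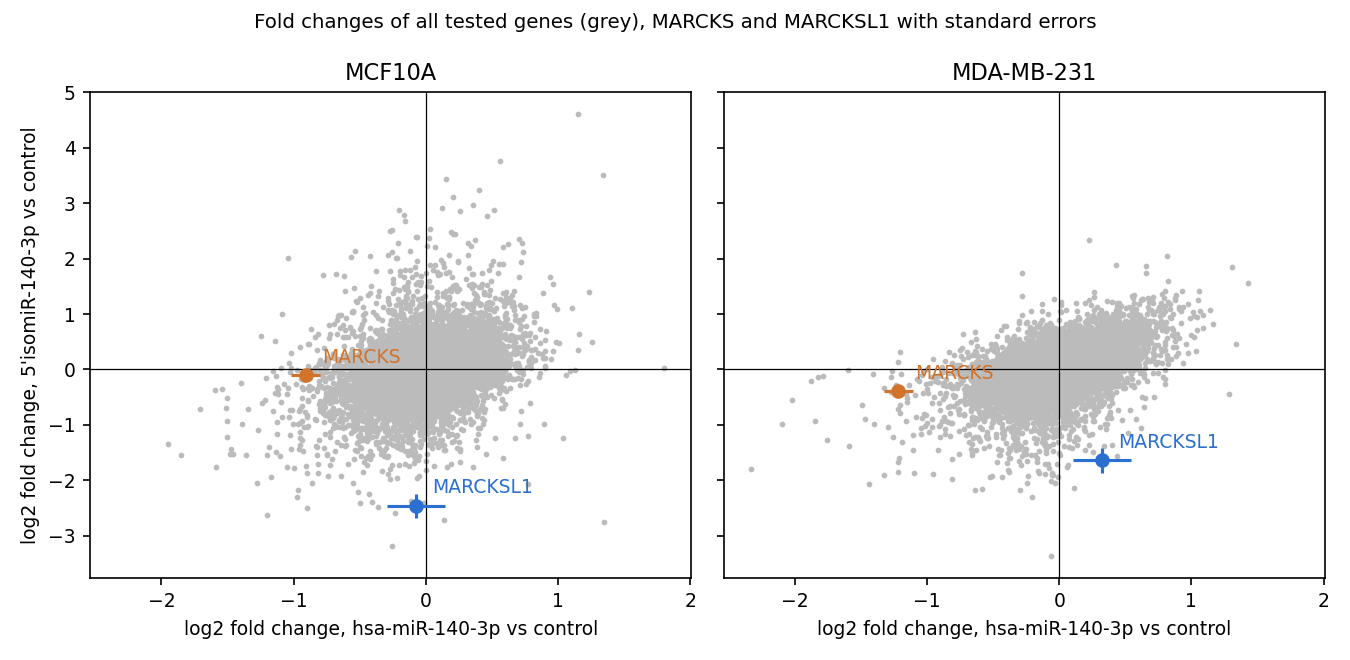
Log2 fold change of each of 10491 tested genes (grey) with hsa-miR-140-3p (horizontal) and with the 5'isomiR (vertical) against the shared controls, in MCF10A (left) and MDA-MB-231 (right); bars on MARCKS and MARCKSL1 are standard errors. MARCKS lies far to the left at -0.91 and -1.22, and MARCKSL1 near the foot at -2.46 and -1.64, the first a fitted value that rests on arrays not above background.

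The lines were compared for the size of each mimic effect. The effect of hsa-miR-140-3p on MARCKS was more negative in MDA-MB-231 by 0.31 on the log2 scale (effect difference -0.31, SE 0.16), and that of the 5'isomiR by 0.29 (effect difference -0.29, SE 0.16). For MARCKSL1 the difference for hsa-miR-140-3p was 0.40 (SE 0.31). These differences come from the fold changes by which the genes were chosen, so they are a description without a test. The 5'isomiR difference for MARCKSL1 was not read, since the MCF10A side is a bound.

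A comparison that the choice of the genes did not use was that between the lines under control mimics. The same control arrays did serve as the reference of the fold changes by which the genes were chosen. MARCKSL1 was 5.93-fold higher in MDA-MB-231 than in MCF10A (log2 difference 2.57, SE 0.22, limma adjusted p = 5.8e-06), with both MDA-MB-231 controls above both MCF10A controls. MARCKS was 1.62-fold higher (log2 difference 0.70, SE 0.11, limma adjusted p = 0.00046), again without overlap, but just short of the fold that a call required. Called higher in MDA-MB-231 were 20.5% of all genes tested and called higher or lower 40.4%, so differences of this kind between the lines were common. The authors had normalised each line apart, and the arrays were brought together here by quantile normalisation. Culture medium also differed between the lines, and its part cannot be told apart from that of the line.

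Ordered by level over the 6 groups, the MARCKS probe was highest in MDA-MB-231 with control mimics, followed by MDA-MB-231 with the 5'isomiR. MCF10A with control mimics and with the 5'isomiR came next and overlapped each other. MDA-MB-231 with hsa-miR-140-3p lay below both of them, and MCF10A with hsa-miR-140-3p was lowest. For MARCKSL1 every MDA-MB-231 group, including that with the 5'isomiR, lay above every MCF10A group. Within it, MDA-MB-231 with hsa-miR-140-3p and with control mimics overlapped at the top, and MCF10A with control mimics and with hsa-miR-140-3p overlapped below MDA-MB-231 with the 5'isomiR.

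The genes whose pattern over the 12 arrays was most like that of each member were taken by the root mean square difference of log2 values, each relative to the control mean of its line. For MARCKS these were SPRED1, an inhibitor of Ras signalling, at a distance of 0.09, ST13, a cochaperone of Hsp70, and RAB8B, a small GTPase of vesicle traffic, both at 0.16, and MYL12A, a regulatory light chain of myosin, and DGKQ, a diacylglycerol kinase, both at 0.19. The median distance over all genes was 0.70. SPRED1 stood close to MARCKS in each comparison, with log2 fold changes of -0.92 and -1.23 with hsa-miR-140-3p in MCF10A and MDA-MB-231, and of -0.17 and -0.28 with the 5'isomiR. The 5 genes together spanned -0.92 to -0.56 and -1.28 to -1.09 with hsa-miR-140-3p, and -0.32 to -0.14 and -0.60 to -0.14 with the 5'isomiR.

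MARCKSL1 had no neighbour as near. Its closest genes were the laminin receptor subunit ITGA6 at 0.34, the basement membrane collagen COL4A1 at 0.35, DENND5B at 0.37, the peptidase BLMH at 0.38 and NIPA2, a magnesium transporter, at 0.39, with a median over all genes of 1.26. With the 5'isomiR they spanned -2.42 to -1.66 in MCF10A and -1.73 to -1.0 in MDA-MB-231, and with hsa-miR-140-3p -0.51 to 0 and -0.02 to 0.25. The distances to MARCKSL1 include its 2 values not above background. The distance between MARCKS and MARCKSL1, which were chosen for unlike values, was 1.31, with 99.6% of genes nearer to MARCKS than MARCKSL1 was and 63.2% nearer to MARCKSL1 than MARCKS was. These 10 genes were picked for their likeness, so the values are a description.

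**Figure D4:**
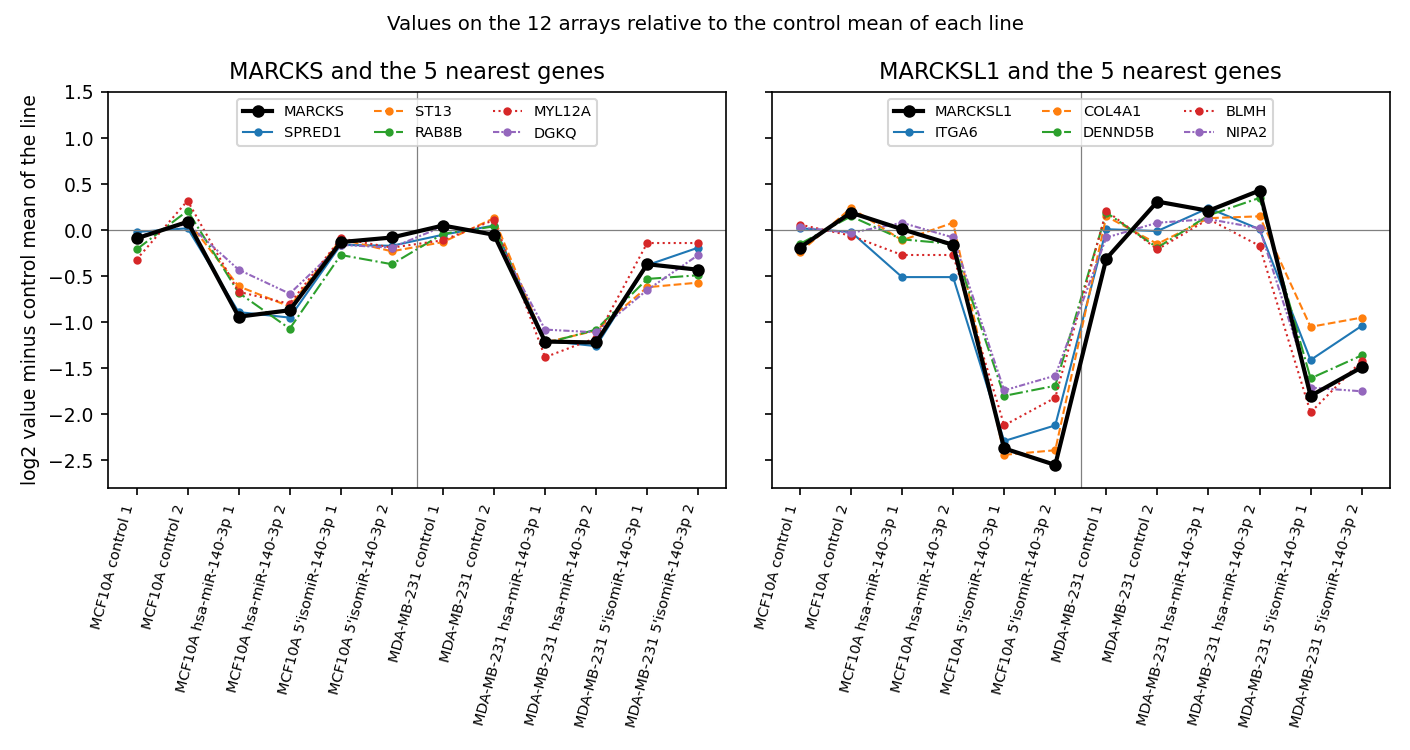
Log2 value minus the control mean of the line on each of the 12 arrays (horizontal axis, group and replicate) for MARCKS (left) and MARCKSL1 (right) in black and the 5 genes nearest to each in colour; lines only join the points of 1 gene. The genes near MARCKS dip on the hsa-miR-140-3p arrays (SPRED1 to -0.92 and -1.23 on average), and those near MARCKSL1 on the 5'isomiR arrays (COL4A1 to -2.42 and -1.0 on average).

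The enzymes and relatives that act with MARCKS proteins were taken as lists by role, 61 genes, of which 55 were on the array and 46 passed the filter on dim probes. With the 5'isomiR, 7 of the 46 were called lower in MCF10A (15.2%, beside 7.34% of all genes) and 6 in MDA-MB-231 (13%, beside 5.09%), and 0 were called higher in either line (5.25% of all genes in MCF10A, 2.41% for MDA-MB-231; 16 and 14 of the 46 had an unadjusted p under 0.05 in either direction, and the methods' test after adjustment called 0). With hsa-miR-140-3p, 0 were called in MCF10A by limma, beside 0.858% of all genes (9 had an unadjusted p under 0.05, and the methods' test after adjustment called 0) and 1 was called lower in MDA-MB-231 (2.17%, beside 1.02%). The median log2 fold change of the 46 lay between -0.04 and 0 in these comparisons, next to medians of 0 to 0.01 over all genes. The lists were drawn up with earlier results of these arrays known, so the counts describe the genes and support nothing further.

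Of the kinases that phosphorylate MARCKS proteins, 11 were measured, 7 of them protein kinase C genes. PRKCD, a diacylglycerol-responsive protein kinase C, read 767 and 926 in the MDA-MB-231 controls and 395 and 421 with the 5'isomiR, which is 42.6% of control (log2 fold change -1.23, SE 0.13, limma adjusted p = 0.00047). In MCF10A it read 593 and 536 in controls and 424 and 393 with the 5'isomiR, 68.8% of control and so short of a call (adjusted p = 0.019). The test of the difference between the lines gave -0.69 (SE 0.19, limma adjusted p = 0.065), in a test that called 3.29% of all genes lower and 2.18% higher. PRKCD was lower with the 5'isomiR in both lines without overlap, and with hsa-miR-140-3p it stood at 111% and 87.6% of control.

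PRKCI, an atypical protein kinase C that needs no diacylglycerol, was the single gene of the lists called when hsa-miR-140-3p was set against control mimics. Its MDA-MB-231 arrays read 217 and 270 in controls and 138 and 164 with that mimic, 41.4% of control after background correction (log2 fold change -1.27, SE 0.24, limma adjusted p = 0.036). In MCF10A it was called lower with the 5'isomiR at 58.3% of control (-0.78, SE 0.24, adjusted p = 0.047). These 2 calls sat at the threshold. With hsa-miR-140-3p in MCF10A it stood nearly as low, at 60.6% (-0.72, SE 0.24, limma adjusted p = 0.21). With the 5'isomiR in MDA-MB-231 it stood at 75.2% (limma adjusted p = 0.32). The mimics did not differ by a call in MCF10A (-0.06, limma adjusted p = 0.91) or in MDA-MB-231 (0.86, limma adjusted p = 0.061). The MDA-MB-231 call was lost when any array of the 2 mimics in either line, or control replicate 2 of MDA-MB-231, was left out (9 of 12 arrays), with log2 fold changes between -1.55 and -1.0. The MCF10A call was lost without control replicate 2, any mimic array of MCF10A or either 5'isomiR array of MDA-MB-231 (7 of 12 arrays), with log2 fold changes between -1.04 and -0.52.

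PRKCQ, the protein kinase C best known from T cells, was dim. It read 144 and 137 in MCF10A controls and was not above background on either 5'isomiR array there, at 115 and 105. As a bound it was at least 1.06-fold lower on the deposited scale and at least 1.17-fold after background correction. The call rests on the fitted log2 fold change of -0.97 (limma adjusted p = 0.0072), and that p does not belong to the bounds. That call was lost without 5'isomiR replicate 2 of MCF10A. With arrays left out in turn, the fitted value lay between -1.12 and -0.82. PRKCQ was above background on the 2 MCF10A control arrays alone and passed the filter through them, so its place among the 7 genes called lower carries no weight. PRKCA, the classical protein kinase C, passed no test against control, with log2 fold changes of -0.18 (MCF10A) and -0.41 (MDA-MB-231) for hsa-miR-140-3p, and of 0.30 and -0.14 for the 5'isomiR. PRKCE, PRKCH and PRKCZ passed none either, and PRKCZ stood at 172% of control with the 5'isomiR in MCF10A (adjusted p = 0.057). PRKCE was above background on 3 arrays, none of them an MCF10A or a 5'isomiR array, so a fall in MCF10A could not be read. Between the lines under control mimics PRKCA stood apart, reading 1060 and 1360 on the MDA-MB-231 arrays and 172 and 166 on those of MCF10A (log2 difference 3.70, SE 0.17, limma adjusted p = 8e-08).

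For the enzymes that remove the phosphate or attach the lipid tail, no call was made against control mimics. The 9 phosphatase genes, subunits of PP1, PP2A and calcineurin, lay between -0.64 (PPP2CB) and 0.66 (PPP1CC), both with the 5'isomiR in MDA-MB-231. By limma 0 to 3 of them had an unadjusted p under 0.05, depending on the comparison. The 4 lipidation genes, METAP1, METAP2, NMT1 and NMT2, which remove the first methionine and add myristate, lay between -0.38 and 0.15 with 0 or 1 at an unadjusted p under 0.05.

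Of the genes that make or use PIP2, 14 were measured. PIP4K2A, a lipid kinase that makes PIP2 from PI5P, was called lower with the 5'isomiR in both lines. Its MCF10A arrays read 868 and 1180 in controls, 918 and 887 with hsa-miR-140-3p, but 541 and 514 under the 5'isomiR (48.6% of control, log2 fold change -1.04, SE 0.16, limma adjusted p = 0.0019). Its MDA-MB-231 arrays read 2920 and 3550, 3000 and 2870, and 1610 and 1660 in the same order (49.6%, -1.01, SE 0.16, adjusted p = 0.0042). In each line both 5'isomiR arrays lay below all others, and both calls held whichever array was left out. The arrays with hsa-miR-140-3p stood at 89.3% and 90.9% of control.

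PIK3CB, a catalytic subunit of the PI3 kinase that turns PIP2 into PIP3, was dim in both lines. It read 157 and 209 in MCF10A controls and 117 and 131 with the 5'isomiR, not above background there. Its MCF10A call rests on the fitted log2 fold change of -1.26 (limma adjusted p = 0.0089), and that p does not belong to the bounds. As a bound, PIK3CB was at least 1.37-fold lower on the deposited scale and at least 1.97-fold after background correction. In MDA-MB-231 it read 196 and 219 in controls and 138 and 132 with the 5'isomiR, above background on 1 of 2 arrays (log2 fold change -1.26, SE 0.26, adjusted p = 0.015). The MCF10A call was lost without control replicate 2 or 5'isomiR replicate 1 of MCF10A, with fitted values between -1.64 and -0.88. The MDA-MB-231 call was lost without control replicate 2 or either 5'isomiR array of that line, with values between -1.39 and -1.13.

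PLCG2, a phospholipase C that cleaves PIP2, read 162 and 172 in MCF10A controls and 118 and 121 with the 5'isomiR, not above background there. Its MCF10A call rests on the fitted log2 fold change of -1.22 (limma adjusted p = 0.00025), and that p does not belong to the bounds. As a bound, PLCG2 was at least 1.26-fold lower on the deposited scale and at least 1.71-fold after background correction. In MDA-MB-231 it read 256 and 250 in controls and 221 and 234 with the 5'isomiR, 84.9% of control (adjusted p = 0.28). Without background correction the MCF10A calls of PRKCQ, PRKCI, PLCG2 and PIK3CB were lost, which leaves PIP4K2A, BASP1 and ADD3. That of PRKCI in MCF10A was also lost under median scaling and under both other filters, its MDA-MB-231 call without the filter, and the MDA-MB-231 call of PIK3CB without background correction.

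Of the related membrane proteins, 4 were measured and 2 were called lower with the 5'isomiR in each line. BASP1, a myristoylated protein that like MARCKS gathers PIP2 at the membrane, read 2050 and 2080 in MCF10A controls, 1530 and 1590 with hsa-miR-140-3p, then 1220 and 1240 under the 5'isomiR (57.6% of control, log2 fold change -0.80, SE 0.12, limma adjusted p = 0.0018). In MDA-MB-231 it read 4010 and 4800, 3920 and 3450, and 1620 and 1700 in the same order (37%, -1.44, SE 0.12, adjusted p = 0.00012). BASP1 was thus lowest with the 5'isomiR in both lines, without overlap, and both calls held whichever array was left out.

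ADD3, an adducin with a MARCKS-like basic domain that caps actin filaments, read 292 and 276 in MCF10A controls and 152 and 161 with the 5'isomiR (37.2% of control, log2 fold change -1.43, SE 0.23, limma adjusted p = 0.0025). In MDA-MB-231 it read 420 and 320 in controls and 193 and 225 with the 5'isomiR (43.9%, -1.19, SE 0.23, adjusted p = 0.011). The hsa-miR-140-3p arrays read 174 and 227 in MCF10A, both below the controls (58.6%, limma adjusted p = 0.17). In MDA-MB-231 they read 366 and 401 (105%). Between the mimics the limma adjusted p was 0.079 in MCF10A, so no call was made there, and 0.011 in MDA-MB-231. The MDA-MB-231 call was lost without 5'isomiR replicate 1 of that line, with log2 fold changes over all arrays left out in turn between -1.45 and -0.93. ADD1 and the scaffold AKAP12 were not called. AKAP12 was above background on no MCF10A array, so a fall there could not be read. Among 4 proteases able to cleave MARCKS or their subunits, the calpain CAPN1 was called lower with the 5'isomiR in MDA-MB-231, from 1100 on both control arrays to 595 and 736 (56.7%, -0.82, SE 0.13, adjusted p = 0.004), and stood at 84.3% of the MCF10A controls.

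**Figure D5:**
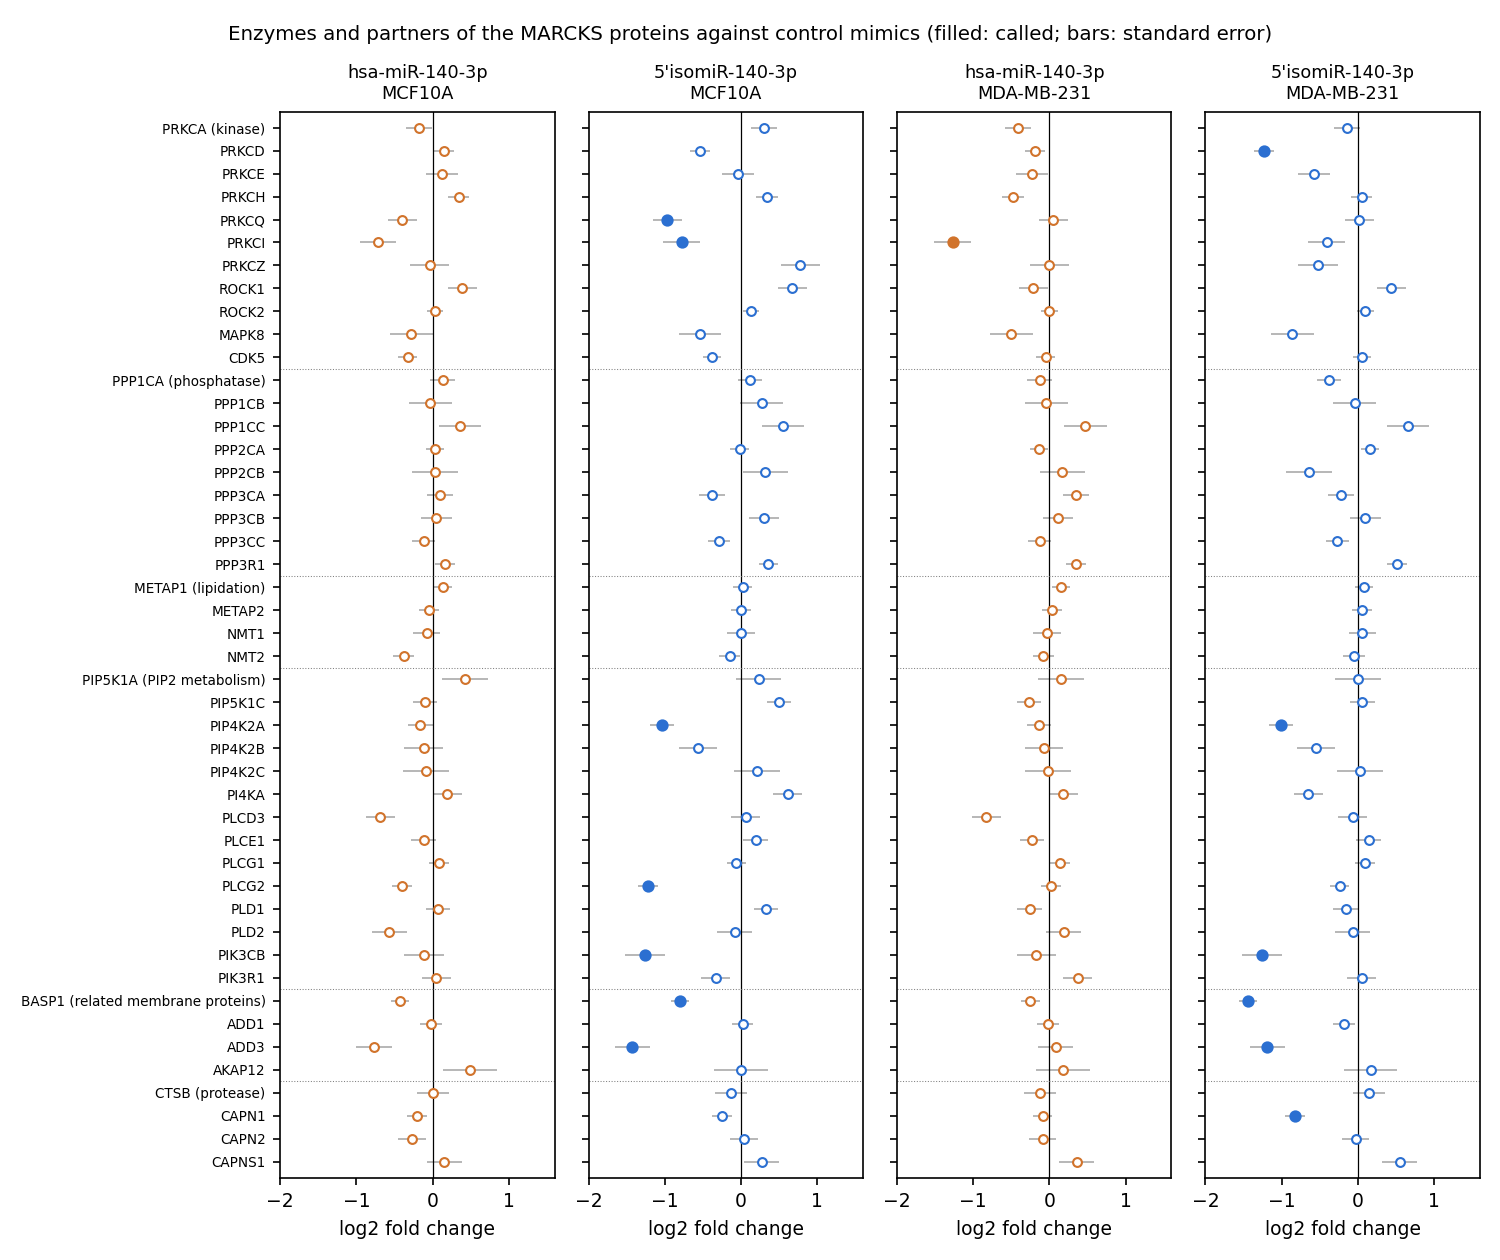
Log2 fold change against control mimics (horizontal axis, bars are standard errors) of the 46 measured genes that act with MARCKS proteins, by role, in 4 panels for each mimic and line; filled points were called. The calls are 0, 7, 1 and 6 from left to right, all lower, and the points of PRKCQ, PLCG2 and PIK3CB in the second panel stand for values not above background.

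Between the lines under control mimics, 13 of the 46 genes were called higher in MDA-MB-231 (28.3%, beside 20.5% of all genes) and 10 lower (21.7%, beside 19.9%). Of the higher ones, PRKCE, PLCE1 and AKAP12 were above background on no MCF10A array and passed the filter through MDA-MB-231. Of the lower ones, PRKCQ and PLD2 were above background on no MDA-MB-231 array and passed it through MCF10A. Such calls follow in part from the filter, so the counts are a description only. BASP1 stood at 214% and PIP4K2A at 336% of the MCF10A level, while PRKCZ was lower and above background on 1 of 2 MDA-MB-231 control arrays.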

How the data were processed

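Linear probe intensities of Illumina HumanHT-12 arrays were used as the authors deposited them, normalised by them within each cell line and without background subtraction. Of 47323 probes, 4 with missing values were left out, and 30111 named 1 gene. Intensities were background corrected (limma 3.58.1 in R 4.3.3, normexp, offset 16, olfactory receptor probes as negative controls), quantile normalised over all 12 arrays and put on a log2 scale. A probe was kept if it was above the 0.99 quantile of those controls on at least 2 arrays, and the brightest probe stood for a gene. A limma model with 6 groups gave fold changes. A gene was called under 65% or over 165% of the reference with a Benjamini-Hochberg adjusted p under 0.05 over 10491 genes. The members, the lists of genes acting with them and the tests were chosen with earlier results of these data known. Named were both members, called list genes (up to 4 per list and comparison), the measured protein kinase C genes and the 5 nearest genes to each member. Array number limits the precision. Scripts were tested on simulated data. A second table with 24 columns of values per array was not used, as its columns could not be tied to samples. Alternatives covered background correction, scaling, filter, moderation, test and arrays left out. One short list of genes is not reported here.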

Additional observations from a re-analysis of the deposited data

Results flagged for a closer look

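Of the 46 measured partners, PLCG2 and PI4KA had a 5'isomiR effect that differed between the cell lines by the test of the difference itself, in opposite directions. That is 2.17% called higher and 2.17% called lower, beside 2.18% and 3.29% of all genes. The partners were thus not called more often than genes at large, and the 2 are given as single genes. For PLCG2 the effect was less negative in MDA-MB-231 by 0.99 on the log2 scale (SE 0.18, limma adjusted p = 0.015), in a test that called 2.18% of all genes higher and 3.29% lower. PLCG2 was not above background on either 5'isomiR array of MCF10A (118 and 121 units), so this value rests on a fitted level below background. Taken from the MCF10A bound after background correction, the difference was at least 0.54, without a test. That floor holds for the corrected scale only. The MCF10A bound was 1.26-fold on the deposited scale, against 1.71-fold after correction, and the difference from the deposited bound was not computed. The fitted difference was 0.34 without background correction (limma adjusted p = 0.14), and 0.33 on log2 of the deposited values (limma adjusted p = 0.15). It also missed the threshold without 5'isomiR replicate 1 of MCF10A (0.92, adjusted p = 0.068) and without 5'isomiR replicate 2 of MDA-MB-231 (0.93, adjusted p = 0.062). Under the other alternatives, which were run for PLCG2 after its value was seen, the adjusted p lay between 0.018 and 0.047.

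PI4KA, a kinase of the pathway that makes PIP2, was outside the rule for named genes and was added after its value was seen. Its 5'isomiR effect was more negative in MDA-MB-231, with a difference of -1.26 (SE 0.26, limma adjusted p = 0.025). It stood at 152% of control in MCF10A and at 63.8% in MDA-MB-231, and neither was called. It was above background on 3 of 12 arrays and on none of both MCF10A control arrays or both MDA-MB-231 5'isomiR arrays, so each of its effects rests on a level below background. On log2 of the deposited values the difference was -0.48 (adjusted p = 0.052), and it missed the threshold without control replicate 2 (-1.17, adjusted p = 0.068) or 5'isomiR replicate 1 (-1.06, adjusted p = 0.094) of MCF10A and without 5'isomiR replicate 1 (-1.30, adjusted p = 0.075) or 2 (-1.21, adjusted p = 0.088) of MDA-MB-231. The adjusted p lay between 0.0084 and 0.048 under the other alternatives.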

How the results depend on the processing

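Apart from arrays left out, 107 of 134 values of the members, list counts and calls over all genes were labelled the same, and 0 reversed. For a member's mimic effect this meant a shift below its spread, and for a count a change of at most 1.5 times. A member's line difference counted as the same if its limma adjusted p stayed under 0.05. That of MARCKSL1 counted although it moved from 2.57 to 2.11 without background correction and to 2.12 on log2 of the deposited values. Member values under the replicate block were set as the same without a check. Without background correction and on log2 of the deposited values, which both compress dim probes, the MARCKSL1 bound for the 5'isomiR in MCF10A was 1.96-fold under both against control and 1.89 and 1.86 against hsa-miR-140-3p, and its log2 difference between the mimics in MDA-MB-231 was -1.73 and -1.72. List genes called with the 5'isomiR in MCF10A came to 3 under both, and to 4 before and 0 after adjustment of the methods' t-test. That test after adjustment gave 0 for either mimic in MDA-MB-231, where the count for hsa-miR-140-3p was also 0 without the filter, 0 with each line fitted on its own and 2 with trend and robust moderation. Under those 2 value scales all calls came to 651 and 655 (5'isomiR, MCF10A, from 1321), 436 and 430 (MDA-MB-231, from 787), 566 and 568 (between mimics, MCF10A, from 1222), 288 and 286 (MDA-MB-231, from 528, with the share called higher falling from 28.8% to 18.8% and 18.5%) and 2697 and 2708 (between lines, from 4236). Calls with hsa-miR-140-3p in MCF10A were 51 without the filter and 59 at the 0.95 quantile, from 90. The 0 counts of the methods' t-test after adjustment carry little weight, as it set 2 arrays against 2 gene by gene. The cause of the changed counts was not tested.

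With arrays left out in turn, MARCKS ranged from -0.99 to -0.82 (hsa-miR-140-3p) and -0.19 to -0.02 (5'isomiR) in MCF10A, -1.26 to -1.17 and -0.44 to -0.35 in MDA-MB-231, and 0.76 to 0.84 and 0.79 to 0.85 between mimics. MARCKSL1 ranged from -0.27 to 0.12 and 0.01 to 0.63 with hsa-miR-140-3p, -1.95 to -1.34 with the 5'isomiR in MDA-MB-231 and -2.12 to -1.81 between mimics there, with MCF10A bounds after background correction of 3.15 to 4.11 and 3.21 to 3.62. The line difference was 0.61 to 0.78 for MARCKS (limma adjusted p 0.00092 to 0.0038) and 2.26 to 2.88 for MARCKSL1 (8.8e-06 to 1e-04). List calls ranged over 0 to 0 and 5 to 9 in MCF10A and 0 to 2 and 4 to 8 in MDA-MB-231, hsa-miR-140-3p first. Calls over all genes ranged over 3 to 136 and 926 to 1416 in MCF10A, 9 to 326 and 445 to 1125 in MDA-MB-231, 822 to 1287 and 221 to 615 between mimics, and 4092 to 4276 between lines. The lowest counts with hsa-miR-140-3p came without one of its own arrays (3 and 5 for MCF10A, 9 and 15 for MDA-MB-231) and the highest without an MDA-MB-231 control array (136 in MCF10A, 326 and 286 in MDA-MB-231). The lowest count between mimics in MDA-MB-231, 221, came without hsa-miR-140-3p replicate 1, and the lowest with the 5'isomiR there, 445, without 5'isomiR replicate 1.

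Same-numbered mimic arrays did not deviate together (correlations of 0.02 for MCF10A and -0.02 for MDA-MB-231), so the numbers do not pair the samples. With the replicate number as a block in a fit of the 8 mimic arrays, 1324 and 608 genes were called between mimics, against 1341 and 660 without the block. Member differences between mimics could not change under this block, as each group held 1 array of each number, and the MARCKSL1 bound in MCF10A was not refitted. The standard error of the MARCKSL1 difference in MDA-MB-231 was 0.10, against 0.22 in the main fit, which also held the controls. No second probe of either member could be tried, as each has 1. A lone array left in a group was assumed to vary like the other groups.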
